A study of Homo sapiens with 8 samples.

Results

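The machinery that brings proteins into mitochondria was measured in quiescent and cycling fractions of RL. This established line comes from a human B cell lymphoma, and its genotype is labelled t(14,18)+. Members were the genes whose name begins with TIMM or TOMM followed by a digit, together with PAM16, DNAJC19, GRPEL1, HSPA9, CHCHD4, SAMM50, MTX1, MTX2, PMPCA and PMPCB, where at least 1 probe set of the array carried that gene symbol and no other. This gave 32 genes with 60 probe sets, out of 19775 genes on the array, and each gene was read from its probe set with the highest mean log2 intensity over the 8 arrays. All 32 passed the filter on dim genes, which kept 11678 genes in all. TOMM6 and TOMM7 had no probe set of their own and were not analysed here. The cells had grown for 14 days as multicellular aggregates and were sorted after staining with pyronin Y, an RNA-binding dye. The quiescent group holds the dull cells and the cycling group the bright cells, with 4 arrays in each group and both groups from the same line and culture form. RL is 1 line, and the labels do not say whether the 4 samples of a group were separate cultures, so every p-value reflects sample-to-sample spread that may be only technical.

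Most mitochondrial proteins are encoded in the nucleus, made in the cytosol and imported. Precursors cross the outer membrane through the TOM complex, and the SAM complex builds channel proteins into that membrane. In the space between the membranes CHCHD4 folds small proteins by forming disulfide bonds, and small TIM chaperones escort hydrophobic ones. The TIM22 complex inserts carriers into the inner membrane, whereas the TIM23 complex and its HSPA9 motor pull proteins with a presequence into the matrix, where a peptidase removes the presequence. Because growth of mitochondria depends on new proteins from the cytosol, import is required wherever cells multiply.

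The deposited intensities share a trimmed mean of 500.1 on every array, whereas their medians spanned 72.2 to 113.8. Values are therefore relative to the other transcripts on an array, and in such bulk samples fewer cells making a transcript and less transcript per cell cannot be told apart. Centring the arrays on their medians, which was the main setting, moves every log2 difference (quiescent minus cycling) by −0.41 from the deposited scaling. Intensities are printed as deposited throughout, whereas a log2 difference with no scaling named is the centred one and does not follow from them directly. Over the 11678 genes the median difference came to −0.33 in centred values, 0.08 in deposited ones and −0.04 once quantile normalized, so counts are given under each scaling. All 5 proliferation genes measured (MKI67, TOP2A, CCNB1, PCNA and CDK1) were lower in quiescent cells under each scaling, and 7 of 8 listed B lineage genes were measured, with a summed intensity of 72576 to 88569 on cycling and 68549 to 89195 on quiescent arrays; 5 of the 7 were called lower in the centred values, where 32.5% of all genes were, and none as deposited or after quantile normalization. Markers of T and NK cells (2 of 7 above the filter) and of myeloid cells (0 of the 5 with a probe set) were dim, with summed intensities of at most 520 and 349. Those of stroma and endothelium (2 of 6 above the filter) summed to 468 to 812 on cycling and 752 to 1218 on quiescent arrays, and their part in the results was not tested. RNA quality can be read from how far the 3′ control probe set of ACTB exceeds the 5′ one. This log2 ratio ranged from 1.80 to 2.26 on cycling and from 2.38 to 2.80 on quiescent arrays (two-sided exact permutation p = 0.0286, the smallest possible over 70 assignments, n = 4 each). For GAPDH the same ratio differed less, from −0.15 to 0.03 on cycling and from 0.10 to 0.14 on quiescent arrays (exact permutation p = 0.0286). Both ratios differed between the same arrays as every gene below, and their part in the results was not tested.

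Most import genes were lower in quiescent cells. In the centred and deposited values some were called lower at every step from the outer membrane to the matrix. After quantile normalization neither gene of the presequence peptidase was called lower. With limma and Benjamini-Hochberg adjustment over all genes tested, 26 of the 32 members were lower at an adjusted p under 0.05 in the centred values, where 32.5% of all genes tested were. None was higher, against 2.80% of all genes. At an unadjusted limma p under 0.05, 0 members were higher centred (4.44% of all genes), 2 as deposited (TIMM10B and TIMM23; 19.5%) and 1 after quantile normalization (TIMM10B; 15.6%). As deposited, 19 were lower against 15.4% of all genes, and 1, TIMM10B, was higher against 12.3%. After quantile normalization 19 were lower against 16.4%, and TIMM10B was again higher against 10.5%. Under all 3 scalings 18 were lower, against 14.1% of all genes, and the word fell is kept for these. None of the members was higher under all 3, against 2.74%. Without a test, 27 had a log2 difference below 0 under each scaling, against 41.3%. On 21 members every quiescent array lay below every cycling array in the centred values, against 28.2% of all genes, and none lay wholly above, against 3.04%. As deposited 18 lay wholly below, against 15.4%, and TIMM10B lay wholly above, against 13.3%. Import genes are bright on these arrays. Among genes over the 75th percentile of mean intensity, 44.6% were lower in the centred values and 22.1% as deposited, and of the 29 members in that range 24 and 18 were; under all 3 scalings 17 of the 29 were, against 19.9%. The median log2 difference of the members was −1.001 centred and −0.59 as deposited, which is 0.67 below the median of all genes under either scaling and 0.51 below it after quantile normalization.

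**Figure D1:**
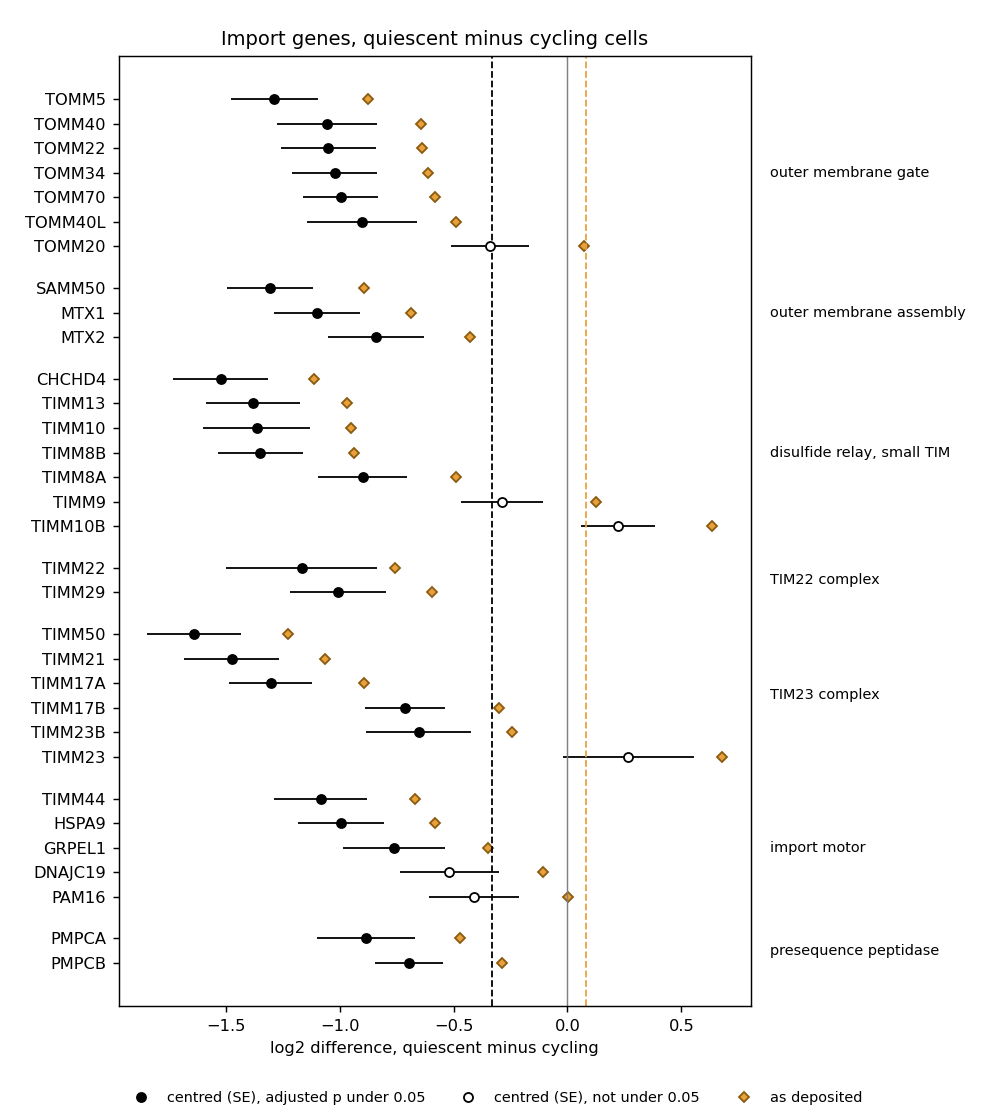
Log2 difference, quiescent minus cycling, of the 32 import genes, grouped by their place in the pathway. Circles are centred values with their standard error (filled where the limma adjusted p was under 0.05), diamonds are the deposited scaling, and dashed lines mark the median of all genes tested under each; the centred differences run from −1.64 for TIMM50 to 0.27 for TIMM23.

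Of the 7 outer membrane gate genes, 5 fell (TOMM5, TOMM40, TOMM22, TOMM34 and TOMM70), TOMM40L was lower in the centred values only, and TOMM20 was not called. TOMM40 forms the channel through which nearly all precursors pass. Its intensities on cycling arrays 1 to 4 were 2638, 1918, 2398 and 2073, and on quiescent arrays 1 to 4 they were 1910, 1628, 1210 and 1119. The groups do not overlap, although quiescent sample 1 lies close under cycling sample 2. The log2 difference was −1.06 (SE 0.22, limma adjusted p = 1.17e-03) centred and −0.64 (adjusted p = 0.0182) as deposited. TOMM5, a small subunit that stabilises the complex, had the largest difference of the group. It measured 7901, 6160, 6557 and 7485 on cycling and 4669, 3665, 3809 and 3241 on quiescent arrays. The log2 difference was −1.29 (SE 0.19, limma adjusted p = 7.13e-05) centred and −0.87 (adjusted p = 5.28e-04) as deposited. Every quiescent value lies below every cycling value.

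Of the receptors of the gate, TOMM70 fell and TOMM20 was not called; their ratio is tested further on. TOMM70 receives carrier precursors, which have internal signals. It fell from 6724, 6789, 5514 and 6538 on cycling arrays to 4285, 5111, 3633 and 4108 on quiescent arrays, with a log2 change of −0.995 (SE 0.16, limma adjusted p = 1.88e-04) centred and −0.58 (adjusted p = 5.05e-03) as deposited, with no overlap. TOMM20, the receptor for presequences, was the brightest member. Its values were 21545, 16704, 19224 and 17391 on cycling and 21902, 17821, 20898 and 18093 on quiescent arrays, so the groups overlap throughout. The log2 difference of TOMM20 was −0.34 (SE 0.17, limma adjusted p = 0.138) centred, 0.07 as deposited and 0.13 after quantile normalization, and its second probe set, with −0.25 centred, was not called either. TOMM22, the central receptor, fell, with a log2 difference of −1.05 centred and −0.64 as deposited. Its groups overlap as deposited, with 6745 on quiescent sample 1 and 6571 on cycling sample 2. TOMM34, a cytosolic co-chaperone of precursors, fell too (−1.02 centred and −0.61 as deposited). TOMM40L, a paralog of the channel gene, measured 885, 538, 858 and 666 on cycling and 642, 519, 493 and 428 on quiescent arrays. These groups overlap through cycling sample 2, and the log2 difference of −0.90 (limma adjusted p = 7.35e-03) became −0.49 (adjusted p = 0.0864) as deposited.

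The genes of the SAM complex, which inserts barrel-shaped channel proteins, were all lower in the centred values, and SAMM50 and MTX1 fell under each scaling. SAMM50, the core of the complex, measured 9626, 7026, 8539 and 8900 on cycling and 4960, 4911, 4477 and 3952 on quiescent arrays (log2 difference −1.31, SE 0.19, limma adjusted p = 6.23e-05). Its second bright probe set gave −1.35. MTX1, a metaxin of the complex, measured 2119, 1737, 1831 and 2308 on cycling and 1222, 1113, 1343 and 1267 on quiescent arrays (log2 difference −1.10, adjusted p = 2.48e-04). Neither gene's groups overlap. MTX2, its partner metaxin, measured 6696, 4767, 5941 and 5159 on cycling and 5570, 3130, 4088 and 4191 on quiescent arrays. Quiescent sample 1 lies inside the cycling range, and the log2 difference of −0.84 (limma adjusted p = 4.88e-03) was −0.43 (adjusted p = 0.0786) as deposited. MTX1 overlaps THBS3 in the RefSeq annotation, as PAM16, PMPCB, TIMM8B, TIMM9, TIMM13, TIMM17B, TIMM22 and TOMM40L overlap other protein-coding genes. What the probe sets of these members take up from the overlapping genes was not tested.

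The space between the membranes held 5 genes that fell, 1 that was not called (TIMM9) and the member that was higher under the deposited scaling (TIMM10B). CHCHD4, the oxidoreductase of the disulfide relay, measured 4131, 3028, 3805 and 3617 on cycling and 2050, 1711, 1762 and 1279 on quiescent arrays, which do not overlap. Its log2 difference was −1.52 (SE 0.21, limma adjusted p = 4.15e-05) centred and −1.11 as deposited (adjusted p = 3.13e-04). The small TIM proteins, which CHCHD4 folds, work in hexamers of TIMM9 with TIMM10 and of TIMM8A or TIMM8B with TIMM13. TIMM13 measured 5252, 3296, 4103 and 3892 on cycling and 2556, 1836, 1934 and 2079 on quiescent arrays (log2 difference −1.38, SE 0.21, adjusted p = 8.14e-05). TIMM8B measured 3713, 3061, 3142 and 3818 on cycling and 1878, 1796, 1962 and 1539 on quiescent arrays (log2 difference −1.35, SE 0.19, adjusted p = 4.21e-05). In both genes every quiescent array lies below every cycling array. TIMM8A, the gene mutated in a syndrome of deafness and dystonia, differed less, by −0.90 (SE 0.20, limma adjusted p = 1.74e-03) centred and −0.49 (adjusted p = 0.0361) as deposited. It measured 1210, 1386, 1491 and 1577 on cycling and 910, 1299, 979 and 882 on quiescent arrays, and quiescent sample 2 lies within the cycling range before centring.

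Of the partners TIMM9 and TIMM10, which were not set against each other in a test, TIMM10 fell from 3990, 2266, 3288 and 2665 on cycling to 2029, 1185, 1481 and 1589 on quiescent arrays (log2 difference −1.36, SE 0.24, limma adjusted p = 2.98e-04), and its dimmer probe set gave −1.35. TIMM9 measured 1278, 1697, 1651 and 1631 on cycling and 1798, 1741, 1804 and 1458 on quiescent arrays. These groups overlap, and TIMM9 was not called, with −0.29 (adjusted p = 0.235) centred and 0.12 (adjusted p = 0.544) as deposited. TIMM10B, a small TIM protein bound to the TIM22 complex, stood at the other end. It measured 2473, 2861, 2591 and 2687 on cycling and 4453, 4187, 3761 and 4071 on quiescent arrays, so that as deposited every quiescent value lies above every cycling value. The log2 difference of TIMM10B was 0.63 (SE 0.11, limma adjusted p = 1.46e-03) as deposited and 0.72 (adjusted p = 6.95e-04) after quantile normalization, but 0.22 (SE 0.16, adjusted p = 0.313) centred. A second, dimmer TIMM10B probe set rose from 532 ± 62.5 to 1046 ± 133 (SD, n = 4 each). It was called higher under both scalings tried for it, by 0.56 centred (limma adjusted p = 0.0270 among all probe sets) and by 0.97 as deposited (8.53e-04).

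The TIM22 complex was measured through its channel gene TIMM22 and through TIMM29, a subunit that stabilises it, and both are dim here. TIMM29 fell from 382, 510, 418 and 478 on cycling to 367, 302, 269 and 251 on quiescent arrays (log2 difference −1.01, SE 0.21, limma adjusted p = 1.19e-03). The groups of TIMM29 do not overlap, but quiescent sample 1 lies just under cycling sample 1. TIMM22 measured 266, 172, 190 and 271 on cycling and 221, 83.1, 131 and 121 on quiescent arrays, which overlap. Its log2 difference was −1.17 (SE 0.33, limma adjusted p = 0.0108) centred and −0.76 (adjusted p = 0.0981) as deposited, and its other probe set above the filter gave −0.35 and was not called.

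**Figure D2:**
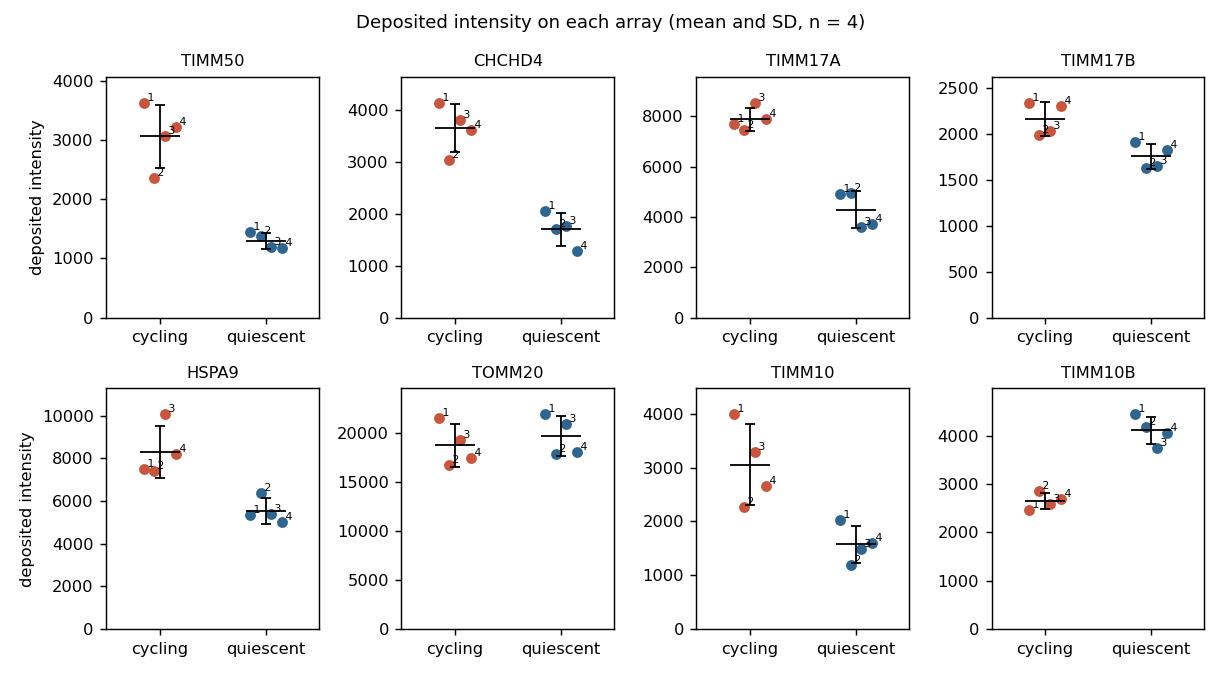
Deposited intensity of 8 import genes on each cycling (red) and quiescent (blue) array, numbered by sample, with mean and SD (n = 4). TIMM50, CHCHD4, TIMM17A, TIMM17B, HSPA9 and TIMM10 lie lower on every quiescent array, TOMM20 overlaps between 16704 and 21902, and TIMM10B lies higher, at 3761 to 4453 against 2473 to 2861.

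Of the 6 genes of the TIM23 complex, TIMM50, TIMM21 and TIMM17A fell. TIMM50, the receptor that hands presequences to the channel, had the largest difference of all 32 members. It measured 3629, 2358, 3062 and 3213 on cycling and 1448, 1377, 1199 and 1171 on quiescent arrays, which differ on the log2 scale by −1.64 (SE 0.20, limma adjusted p = 1.61e-05) centred and −1.23 (adjusted p = 1.14e-04) as deposited. The lowest cycling value of TIMM50 is well above its highest quiescent value. TIMM21, which links the complex to the outer membrane gate and to respiratory chain assembly, measured 2201, 1867, 2214 and 2109 on cycling and 1062, 1248, 1022 and 744 on quiescent arrays (log2 difference −1.47, SE 0.21, adjusted p = 4.63e-05). Its second probe set gave −1.15 and was also called lower.

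TIMM17A and TIMM17B encode alternative channel subunits of the TIM23 complex. TIMM17A measured 7692, 7477, 8540 and 7881 on cycling and 4896, 4941, 3620 and 3736 on quiescent arrays (log2 difference −1.30, SE 0.18, limma adjusted p = 4.49e-05). TIMM17B measured 2340, 1984, 2030 and 2309 on cycling and 1916, 1632, 1653 and 1827 on quiescent arrays (log2 difference −0.71, SE 0.18, adjusted p = 4.31e-03). Neither gene's groups overlap, but TIMM17B did not pass as deposited, with −0.30 (adjusted p = 0.0916). TIMM23, the channel itself, had 1 probe set of its own and was dim, with 223, 211, 124 and 92.6 on cycling and 259, 234, 277 and 213 on quiescent arrays. Its groups overlap, and it was not called (log2 difference 0.27, SE 0.29, limma adjusted p = 0.514 centred and 0.113 as deposited). TIMM23B, its near-identical copy, was lower in the centred values only, by 0.65 (adjusted p = 0.0363), and was not called without cycling sample 1, 3 or 4 or quiescent sample 1 or 4 (adjusted p of 0.0680 to 0.130). Probe sets annotated to both copies were left out, so the main transcript of the channel may not be what these 2 probe sets read.

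In the import motor the chaperone and its tether fell, while its J protein genes DNAJC19 and PAM16 were not called. HSPA9, the mitochondrial HSP70 that pulls precursors inward, measured 7496, 7424, 10066 and 8215 on cycling and 5334, 6387, 5397 and 4996 on quiescent arrays, with no overlap (log2 difference −0.99, SE 0.19, limma adjusted p = 5.97e-04, and −0.58 as deposited with adjusted p = 4.78e-03). TIMM44, which anchors HSPA9 at the channel, measured 2052, 1376, 1655 and 1717 on cycling and 1247, 953, 1068 and 984 on quiescent arrays, also with no overlap (log2 difference −1.08, SE 0.20, adjusted p = 5.50e-04). DNAJC19, the J protein that stimulates HSPA9, measured 1453, 899, 1024 and 867 on cycling and 1204, 894, 858 and 936 on quiescent arrays. PAM16, which holds DNAJC19 in check, measured 578, 585, 602 and 498 on cycling and 702, 558, 494 and 528 on quiescent arrays. The groups of both overlap. Their log2 differences were −0.52 (SE 0.22, limma adjusted p = 0.0719) and −0.41 (SE 0.20, adjusted p = 0.118) centred, and −0.11 and 0.002 as deposited. The dimmer DNAJC19 probe set passed in the centred values, with −0.64 (adjusted p over all probe sets 0.0373).

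GRPEL1, the factor that lets HSPA9 exchange its nucleotide, measured 4694, 7363, 8345 and 8243 on cycling and 3741, 6005, 5904 and 6796 on quiescent arrays. Sample 1 is the lowest of its group in both fractions, and the groups overlap through it. The log2 difference of GRPEL1 was −0.76 (SE 0.23, limma adjusted p = 0.0139) centred and −0.35 (adjusted p = 0.231) as deposited, and the centred call was lost without cycling sample 3 or 4 (adjusted p = 0.0574 and 0.0525). Its second probe set gave −1.05 and passed under both, with an adjusted p over all probe sets of 0.0258 as deposited.

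The subunits of the peptidase that removes presequences were lower in the centred values. PMPCA, which binds the presequence, measured 2221, 1568, 2011 and 1415 on cycling and 1623, 1306, 1046 and 1205 on quiescent arrays, which overlap as deposited (log2 difference −0.88, SE 0.21, limma adjusted p = 3.69e-03 centred, and −0.47 with 0.0668 as deposited). PMPCB, the catalytic subunit, measured 15564, 15681, 14946 and 15984 on cycling and 13946, 12814, 11597 and 12754 on quiescent arrays, which do not. Its log2 difference was −0.70 (SE 0.15, adjusted p = 1.51e-03) centred, −0.29 (adjusted p = 0.0333) as deposited and −0.16 (adjusted p = 0.216) after quantile normalization. A dim second PMPCB probe set went the other way, from 140 ± 38.4 to 370 ± 132 (SD, n = 4 each), and was called higher, by 0.97 centred (limma adjusted p = 0.0194 among all probe sets) and 1.38 as deposited (4.92e-03).

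Ranked among all genes tested by their log2 difference, where the lowest rank is the largest fall and a common shift of the arrays has no effect, the members had a median percentile of 12.6. Of the 32, 11 lay at or under the 10th percentile and 24 at or under the 25th percentile. TIMM50 had the lowest percentile, 3.02, followed by CHCHD4 at 3.72 and TIMM21 at 4.01. TIMM9, TOMM20 and PAM16 lay near the middle, at 53.6, 49.5 and 43.6. TIMM10B and TIMM23 were the 2 members above the 75th percentile, at 86.0 and 87.8.

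**Figure D3:**
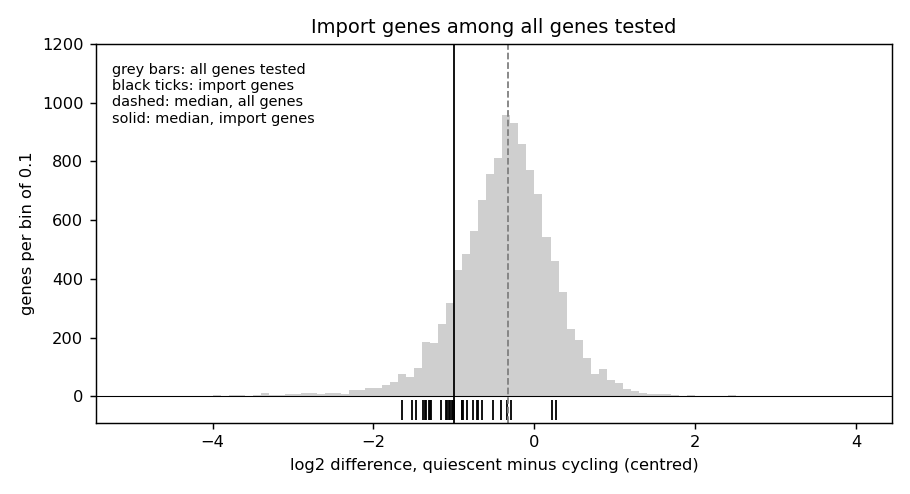
Distribution of centred log2 differences, quiescent minus cycling, over the 11678 genes tested (bars, bins of 0.1), with the 32 import genes as ticks under the axis. The median of the import genes (solid line, −1.001) lies left of the median of all genes (dashed line, −0.33), and 2 ticks, TIMM10B and TIMM23, lie above 0.

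Arrays of the same group also differed in the level of the members. In the centred values 31 of the 32 members lay below their cycling mean on cycling sample 2, as did 74.4% of all genes tested, with a median deviation of −0.44 on the log2 scale for the members and −0.22 for all genes. In the deposited values 24 members lay below it on that array, with 43.4% of all genes, and the median deviations were −0.17 and 0.05. On quiescent sample 4, 30 members and 63.5% of all genes lay below their quiescent mean when centred, and 25 members and 51.3% of all genes as deposited. On the other 6 arrays 3 to 14 members lay below the mean of their group when centred, and 6 to 20 as deposited. Relative to the median of all genes on the same array, the median member stood at 1.53 to 1.92 on the log2 scale on cycling arrays and at 0.98 to 1.43 on quiescent arrays, which do not overlap; cycling sample 2 is the lowest of the former and quiescent sample 1 the highest of the latter. Without cycling sample 2, 28 of the 32 were lower in the centred values. The members added were TOMM20 (−0.48, limma adjusted p = 0.0102) and DNAJC19 (−0.68, adjusted p = 0.0153), so that neither stays uncalled on every choice of arrays.

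Whether partner and paralog genes changed unequally was tested with the log2 ratio of their intensities on the same array, which common scaling of an array does not alter. Each of the 10 pairs had an exact permutation test (two-sided), whose smallest possible p over 70 assignments is 0.0286, and no pair passed after Benjamini-Hochberg adjustment over the 10. A pair could pass only if most of the 10 reached that smallest p, so the adjusted result cannot judge any single pair. For 5 of the pairs p was 0.0286 and the adjusted p 0.0571. The ratio of TIMM10 to TIMM10B differed most. It was 0.17 ± 0.44 on cycling and −1.41 ± 0.29 on quiescent arrays (log2, SD, n = 4 each, exact permutation p = 0.0286), a change of −1.59, with every quiescent ratio below every cycling one. The ratio of TIMM17A to TIMM17B was lower by 0.59, at 1.87 ± 0.16 on cycling and 1.28 ± 0.25 on quiescent arrays (exact permutation p = 0.0286), again without overlap.

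The remaining 3 of those 5 pairs had higher ratios on quiescent arrays. DNAJC15 encodes another J protein of the motor. It fell from 2045, 1369, 1636 and 1698 on cycling to 1183, 792, 808 and 915 on quiescent arrays (log2 difference −1.28, limma adjusted p = 1.71e-04). The ratio of DNAJC19 to DNAJC15 was −0.69 ± 0.20 on cycling and 0.08 ± 0.07 on quiescent arrays, higher by 0.77 and without overlap (exact permutation p = 0.0286). With the mean of all probe sets of each gene this change was only 0.21 (exact permutation, adjusted p = 0.476), so it depends on the probe sets chosen. With that mean TIMM17A to TIMM17B (−1.30) and TIMM8A to TIMM8B (0.61) were no longer at the smallest p (exact permutation, adjusted p = 0.190 each). TIMM10 to TIMM10B and TOMM20 to TOMM70 still were (adjusted p = 0.0714 each). With the chosen probe sets TOMM20 to TOMM70 was higher by 0.66 and TIMM8A to TIMM8B by 0.45, each without overlap (exact permutation p = 0.0286 each). For TOMM20 to TOMM70 the groups all but touch, with 1.8016 the highest cycling and 1.8019 the lowest quiescent ratio. The other 5 pairs overlap between groups. TOMM40 to TOMM40L changed by −0.16 (p = 0.229 by exact permutation), PMPCA to PMPCB by −0.19 (0.343), MTX1 to MTX2 by −0.26 (0.286), HSPA9 to TIMM44 by 0.09 (0.714) and GRPEL1 to its paralog GRPEL2 by 0.13 (0.886). GRPEL2 itself measured 1833, 1270, 1429 and 1392 on cycling and 1306, 1219, 1054 and 729 on quiescent arrays, which overlap as deposited. With 4 arrays a group, these tests do not show that the genes of a pair change alike.

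**Figure D4:**
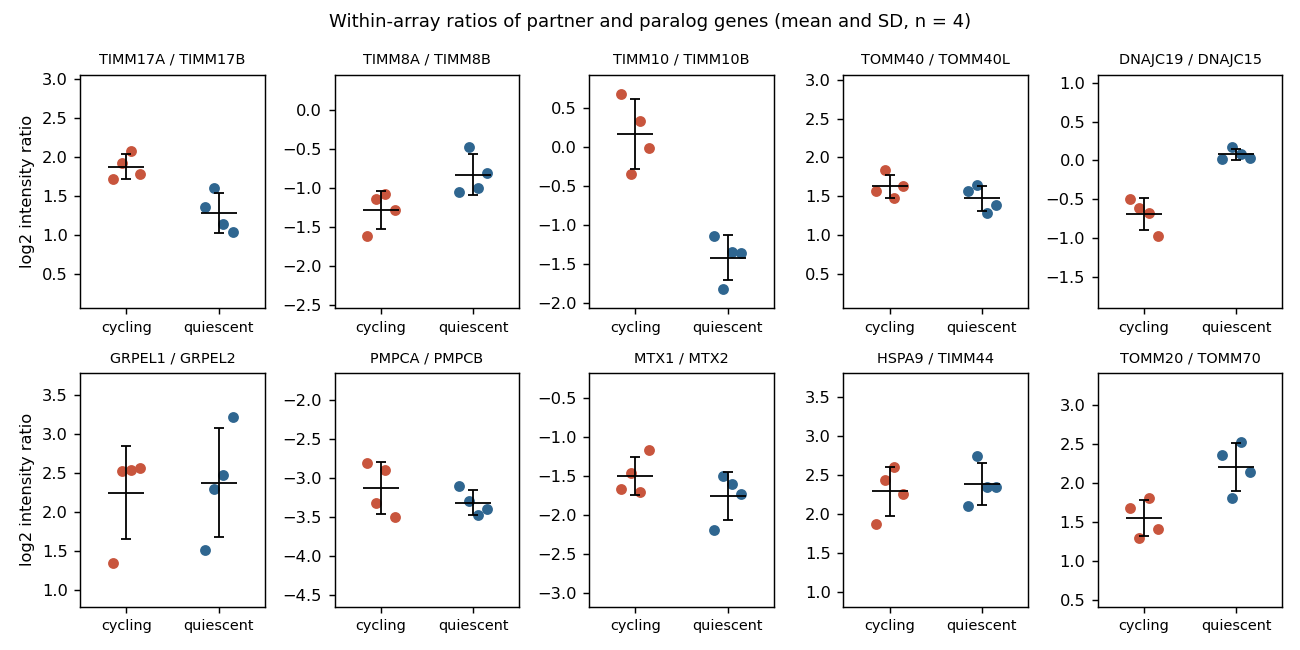
Log2 ratio of the intensities of 2 genes on the same array, for 10 pairs, on cycling (red) and quiescent (blue) arrays, ordered by sample number, with mean and SD (n = 4); every panel spans 3 log2 units. The groups are apart for TIMM17A/TIMM17B, TIMM8A/TIMM8B, TIMM10/TIMM10B, DNAJC19/DNAJC15 and TOMM20/TOMM70, and overlap for the other 5 pairs.

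Probe sets of a gene mostly gave the same call. Of the 60 probe sets of the members, 51 passed the filter, and in a limma fit over all 22265 such probe sets 40 were lower, against 26.5% of all probe sets, and 2 higher, against 3.39%, in the centred values, the 2 being the dimmer probe sets of PMPCB and TIMM10B. As deposited 30 were lower, against 12%, and 3 higher, against 14.3%. Of the 16 members with several probe sets above the filter, 11 had all of them in the same class (lower, higher or not called) in the centred values. The exceptions were DNAJC19, PMPCB, TIMM10B, TIMM17A and TIMM22. As deposited, the probe sets of DNAJC19, TIMM10B and TIMM22 agreed, whereas those of HSPA9, TOMM22 and GRPEL1 did not. There the dimmest probe set above the filter was not called for HSPA9 (−0.27, limma adjusted p = 0.373) or TOMM22 (−0.49, 0.235). TIMM17A had a second bright probe set at −1.27 and a dim one, at 140 ± 44.6 on cycling and 161 ± 42.1 on quiescent arrays (SD, n = 4 each), that was not called (−0.18).

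Other genes that deliver, fold, process or survey imported proteins were described in 8 lists. Together, 42 of their 60 measured genes were lower in the centred values, against 32.5% of all genes, 31 as deposited, against 15.4%, and 29 after quantile normalization, against 16.4%. One, MTX3, was higher under the deposited scaling and after quantile normalization. The lists were not tested as sets, and the counts of each list below stand beside the same shares of all genes (32.5% centred and 15.4% as deposited). Of 10 genes for outer membrane insertion, channels and membrane assembly, 6 were lower, and 5 as deposited, where MTX3, another metaxin gene, was called higher. MTCH2, an insertase of the outer membrane, fell from 4561 ± 1405 to 1393 ± 212 (SD, n = 4 each). Its log2 difference was −2.08 (limma adjusted p = 1.67e-05) centred and −1.67 as deposited. BCS1L, an inner membrane translocase, fell too (−1.18 centred). MTX3 measured 2260 ± 328 and 3132 ± 398, with log2 differences of 0.06 centred (adjusted p = 0.816) and 0.47 as deposited (adjusted p = 0.0262). Of 9 further import and relay factors, 6 were lower and 4 as deposited. AIFM1, the partner of CHCHD4, fell (−1.43), as did AGK, a subunit of the TIM22 complex (−1.32), whereas GFER, the oxidase that recharges CHCHD4, was not called (−0.42, adjusted p = 0.211).

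All 7 matrix folding and protease genes were lower in the centred values, and 5 as deposited. TRAP1, the mitochondrial HSP90, fell from 6556 ± 635 to 2440 ± 566 and HSPE1, the cap of the HSP60 chamber, from 6151 ± 1433 to 2236 ± 122 (SD, n = 4 each). Their log2 differences were −1.86 and −1.84 centred, and −1.45 and −1.43 as deposited. Of 6 genes for presequence and peptide clearance 4 were lower under each of the 3 scalings, led by IMMP1L, an inner membrane peptidase (−1.20), and NLN (−1.17). Of 8 genes for inner membrane quality control 7 were lower and 5 as deposited, led by the prohibitin PHB1 (−2.09) and the protease AFG3L2 (−1.37). Of 6 genes of the system that shapes the cristae 5 were lower and 4 as deposited, led by MICOS10 (−1.68) and APOO (−1.31). Of 7 cytosolic delivery chaperones 4 were lower and 3 as deposited; the largest difference was that of HSPA4 (−0.88), and DNAJA2 did not pass as deposited. The surveillance list lay nearest to the genes at large. Of 7 genes of import stress and surveillance 3 were lower in the centred values, and 1 as deposited (ATAD1, which extracts stalled proteins), and their median difference was −0.41 against −0.33 for all genes. PINK1, the kinase that import normally removes, measured 471 ± 128 and 601 ± 126 (SD, n = 4 each) and was not called (−0.04 centred, 0.37 as deposited with adjusted p = 0.242).

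Promoter sequence of the members was read from RefSeq (GRCh38.p14) over windows of 300 bases, 250 before to 50 after the gene's start, which 29 of the 32 members had. The window of TIMM17B (minus strand, chrX:48897719-48898018) lay inside the annotated gene, whose start is at 48898143. Its CCAAT, counted below, is therefore not in a window around that start. Each motif was searched on both strands. CCGGAAG, the core bound by ETS factors such as GABPA, stood in 12 of the 29 members (41.4%) and in 22.8% of the tested genes with a window, and in 10.3% of all windows. The core of the site of NRF1, a regulator of nuclear genes for mitochondria, was searched as GCGC, any 2 bases, GCGC, and stood in 7 (24.1%), against 18.3% and 8.32%. CACGTG, the E-box read by MYC and other factors, stood in 4 (13.8%), against 12.5% and 7.26%. CCAAT stood in 11 (37.9%), against 43.7% and 34.6%, and TATAAA in 0, against 8.62% and 11.5%. The 12 members with CCGGAAG had a median log2 difference of −0.92 and the 17 without it −1.06. They include TIMM10, which fell, TOMM20, which was not called, and TIMM10B, so that members with the motif lie at both ends of the range.

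The stretches before the start are shown for TIMM50, the largest fall of the TIM23 complex, and for the relay gene CHCHD4. Small TIM genes that did and did not fall are shown too, as is the receptor gene TOMM20, which was not called. Bases that belong to a neighbouring gene are left out (TMEM43 beside CHCHD4, and ARFIP2 beside TIMM10B). Capitals mark the motifs named above that lie wholly inside the stretch, on either strand, so that ATTGG is CCAAT and CTTCCGG is CCGGAAG on the other strand. TIMM50 (plus strand, chr19:39480638-39480837) has 1 CCAAT, and CHCHD4 (minus strand, chr3:14124871-14125051) has the NRF1 core at 2 places. TIMM13 (minus strand, chr19:2427587-2427786) and TIMM10B (plus strand, chr11:6481332-6481500) have CCGGAAG on the other strand, and TIMM10 (minus strand, chr11:57530755-57530954) has it at 2 places. TOMM20 (minus strand, chr1:235128838-235129037) has an E-box, an NRF1 core and an ETS core in one stretch.
TIMM50: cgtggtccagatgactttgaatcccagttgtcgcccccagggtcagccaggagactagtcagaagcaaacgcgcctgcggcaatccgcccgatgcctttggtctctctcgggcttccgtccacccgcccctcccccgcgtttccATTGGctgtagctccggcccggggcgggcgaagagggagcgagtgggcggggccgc
CHCHD4: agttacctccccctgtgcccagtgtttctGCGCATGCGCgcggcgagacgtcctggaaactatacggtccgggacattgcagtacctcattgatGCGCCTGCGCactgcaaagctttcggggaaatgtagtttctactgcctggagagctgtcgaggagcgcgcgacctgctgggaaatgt
TIMM13: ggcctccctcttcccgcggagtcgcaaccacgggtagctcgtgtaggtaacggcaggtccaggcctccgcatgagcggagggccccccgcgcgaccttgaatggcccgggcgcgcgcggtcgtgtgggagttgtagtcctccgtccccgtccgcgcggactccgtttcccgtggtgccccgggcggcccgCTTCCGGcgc
TIMM10: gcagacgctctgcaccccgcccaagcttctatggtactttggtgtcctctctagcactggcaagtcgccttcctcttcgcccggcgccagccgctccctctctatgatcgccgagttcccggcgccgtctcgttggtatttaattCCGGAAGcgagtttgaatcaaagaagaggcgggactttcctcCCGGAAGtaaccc
TIMM10B: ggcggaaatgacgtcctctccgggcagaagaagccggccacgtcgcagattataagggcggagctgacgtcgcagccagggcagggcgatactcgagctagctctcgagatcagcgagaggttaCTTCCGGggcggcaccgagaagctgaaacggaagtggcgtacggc
TOMM20: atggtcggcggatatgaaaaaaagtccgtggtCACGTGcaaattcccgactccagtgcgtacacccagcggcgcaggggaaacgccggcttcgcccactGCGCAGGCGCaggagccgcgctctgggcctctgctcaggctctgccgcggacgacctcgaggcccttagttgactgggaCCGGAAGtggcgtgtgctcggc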

How the data were processed

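RNA of 4 quiescent and 4 cycling samples was measured on Affymetrix human arrays, with groups and sample numbers taken from the titles. The authors deposited linear intensities made with MAS5, per the submitters' processing notes, which name no version among the labels read here. Every array has the same trimmed mean (2% left out at either end), as the values show. Without detection calls, dim values may be background, and the number of arrays limits the precision. No column was left unused.

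After a floor of 1, intensities were put on the log2 scale, and arrays were centred on their medians, which spanned 0.66, as in an earlier analysis of the same arrays. Gene names come from the platform's annotation, with 41097 of 42898 listed having 1 symbol, 1801 several, and 11777 unlisted. Entrez identifiers of 41043 matched RefSeq genes of GRCh38.p14. Promoter windows and overlapping genes of that annotation were found by gene symbol. Genes dimmer on average than the median non-control probe set (intensity 83.3) were left out. Groups were compared with lmFit and eBayes (trend, robust) of limma 3.58.1 in R 4.3.3, with Benjamini-Hochberg adjustment over 11678 genes and a threshold of 0.05. Ratios within an array were compared by exact permutation in scipy 1.17.1, and figures drawn with matplotlib 3.10.9 in Python 3.11.15.

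In simulated data for the 11678 genes with 200 changed, 4-fold changes were recovered in 88% and 2-fold changes in 53% of cases, and 7 genes were called falsely. The simulated noise was independent between genes, and far fewer genes changed than the 3794 called lower in the centred values. These rates therefore need not hold for the measured data. Members and lists were chosen with earlier results of these data known. Named genes are all members, with values on every array for the 2 most and the least lowered of each role, every member not called and every gene of a pair; TIMM23B, TOMM22 and TOMM34 are summarised, and TIMM8A and DNAJC15 count as genes of a pair. In related lists up to 2 called genes are named, and GFER, PINK1, DNAJC15 and GRPEL2 besides; GFER and PINK1 were chosen after their values were seen. Alternatives were the deposited scaling, quantile normalization, no filter, a filter at the 75th percentile, 32 added before log2, the mean of all probe sets of a gene, plain eBayes, the sample number as a block and leaving out each array.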

Additional observations from a re-analysis of the deposited data

Results flagged for a closer look

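In groups of 4 arrays, a value was marked as standing apart where its gap to the nearest other array, divided by the range of the group, passed Dixon's 95% critical value for 4. For member genes the gap and range were taken on centred log2 values. The intensities printed beside them are as deposited and need not give the same gap, and whether the marks hold as deposited was not examined. Of 84 groups examined (64 of member genes and 20 of ratios) 6 were marked, and chance marks about 1 group in 20. Cycling sample 2 was the low array for SAMM50 (gap 0.878 of the centred range, with 7026 against 8539 to 9626 as deposited on the other cycling arrays). It was also the low array for TIMM50 (0.833, with 2358 against 3062 to 3629) and for TIMM17B (0.873, with 1984 against 2030 to 2340). On that array 31 of the 32 members and 74.4% of all genes lay below their group mean in the centred values, and 24 members and 43.4% of all genes as deposited. Quiescent sample 1 was the high array for DNAJC19 (0.975, 1204 against 858 to 936) and the low array for GRPEL1 (0.852, 3741 against 5904 to 6796). The log2 ratio of GRPEL1 to GRPEL2 was low on cycling sample 1 (0.974, 1.36 against 2.54 to 2.57).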

How the results depend on the processing

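The number of members called lower, 26, was 19 as deposited, 19 after quantile normalization, 25 without the filter, 25 of 29 with the filter at the 75th percentile, 25 with 32 added before log2, 20 with the mean of all probe sets of a gene, and 25 with plain eBayes. It was 24 to 28 when each array was left out in turn. DNAJC19 was called lower without cycling sample 2 or quiescent sample 1 (limma adjusted p = 0.0153 and 0.0398) and with the filter at the 75th percentile (0.0429). TOMM20 was called lower without cycling sample 2 (0.0102). Leaving arrays out of the deposited scaling, which was chosen after seeing the data, gave 15 to 22, with 17 without cycling sample 2 or 4 and 15 without cycling sample 3 or quiescent sample 3 or 4. The number called higher, 0, was 1 (TIMM10B) as deposited, 1 after quantile normalization, 1 as deposited with the block and 1 to 1 when each array was left out as deposited. The signs turned for TIMM9 (0.12), PAM16 (0.0023) and TOMM20 (0.074) as deposited, for TIMM9 (0.15) and TOMM20 (0.13) after quantile normalization, and for PMPCB (0.14) and TIMM17B (0.10) with the mean of all probe sets, where dim probe sets enter. The ratio of GRPEL1 to GRPEL2 was −0.11 with that mean and −0.17 to 0.42 when each array was left out. That of HSPA9 to TIMM44 was 0.51 with that mean (exact permutation, adjusted p = 0.0714) and −0.051 to 0.19 when each array was left out. With the same mean PMPCA to PMPCB changed by −1.02 (adjusted p = 0.0714) and DNAJC19 to DNAJC15 by 0.21 (adjusted p = 0.476). TIMM17A to TIMM17B then changed by −1.30 and TIMM8A to TIMM8B by 0.61 (exact permutation, adjusted p = 0.190 each). The median of members minus that of all genes stayed between −0.77 and −0.51 in the alternatives run. The labels do not say that sample numbers pair the samples, and they were not treated as pairs, since not every same-numbered correlation of deviations was over 0.1 (0.34, 0.20, 0.11 and 0.04). Cycling samples 1, 2 and 3 correlated best with their own number and cycling sample 4 with quiescent sample 3, so pairing is not excluded. With the number as a block 28 members were lower, DNAJC19 and TOMM20 being added (limma adjusted p = 0.0195 and 0.0250), and 25 as deposited with the block. Where not named otherwise, the cause of a change was not tested.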
